A study of Homo sapiens with 10 samples.

Results

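The aminoacyl-tRNA synthetases, the enzymes that attach each amino acid to its transfer RNA, were examined in 786-O cells in which ZHX2 or p65 had been targeted by short hairpin RNAs. The list held 35 genes by name, 19 for cytosolic enzymes and 16 for mitochondrial enzymes, matched by current symbol or by the older alias without the final 1. A name ending in 2 marked a mitochondrial enzyme. Of the 35, 34 had a probe set annotated to a single gene, among 22462 genes in all, and the exception was SARS2, whose probe sets are shared with another gene, so its signal was not analysed here.

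786-O is an established human clear-cell renal carcinoma line that lacks functional VHL, the protein that marks hypoxia-inducible factors for destruction. All cells received lentivirus and were selected with puromycin at 2 ug/ml, controls included. One deposited table held 6 arrays, 2 each for ZHX2 hairpin 45, ZHX2 hairpin 44 and a scrambled hairpin, and a second table held 4 arrays, 2 each for p65 shRNA and control shRNA. The labels do not say whether the 2 arrays of a group came from separate infections, so the p-values cover only the spread among these arrays, which may be technical. Each table was normalized on its own, so levels were not set against each other across tables, nor between genes. ZHX2 is a zinc-finger and homeobox protein studied as a VHL target, and p65, encoded by RELA, is a subunit of the transcription factor NF-kB.

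Cells carry separate sets of synthetases for cytosolic and for mitochondrial translation, and all of them are encoded in the nucleus. Most amino acids have one gene for each compartment, while KARS1 and GARS1 each supply both compartments with the lysine or glycine enzyme. In the cytosol part of the set sits in a large multisynthetase complex held together by scaffold proteins. When charged tRNA runs short, the kinase GCN2, encoded by EIF2AK4, raises translation of the transcription factor ATF4, and cytosolic synthetase genes are among the known targets of ATF4.

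ATF4 binds, with C/EBP partners, elements of the form TGATGNAA, so promoter windows from RefSeq (GRCh38.p14), which run from 250 bases before to 50 bases after each start, were searched for these letters on both strands. Of the cytosolic synthetase genes 7 of 16 with a window held a match (43.75%), of the mitochondrial ones 1 of 14 (7.143%, a count over listed genes that includes SARS2), and of all genes with a window 1217 of 27305 (4.457%). The 7 cytosolic genes were AARS1, CARS1, GARS1, IARS1, MARS1, NARS1 and TARS1, and the mitochondrial one was YARS2, while YARS1, LARS1, VARS1, AARS2 and VARS2 were not searched. The 60-base stretches around 5 of these matches are shown. They belong to genes named below by smallest p, with both ZHX2 hairpins or between the hairpins, and all 5 genes rose with both hairpins. They read 5′ to 3′ on the gene's strand, with the match in capitals, as TTGCATCA or TTTCATCA where it lies on the opposite strand.
AARS1 (chr16:70289660-70289719, minus strand): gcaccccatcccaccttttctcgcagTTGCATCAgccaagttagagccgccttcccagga
MARS1 (chr12:57488038-57488097, plus strand): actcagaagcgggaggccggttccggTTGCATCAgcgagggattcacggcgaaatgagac
GARS1 (chr7:30594819-30594878, plus strand): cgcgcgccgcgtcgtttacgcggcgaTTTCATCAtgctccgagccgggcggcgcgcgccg
CARS1 (chr11:3057394-3057453, minus strand): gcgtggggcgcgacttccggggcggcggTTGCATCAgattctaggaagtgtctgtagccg
NARS1 (chr18:57621807-57621866, minus strand): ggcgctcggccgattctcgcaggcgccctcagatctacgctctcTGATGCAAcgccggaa
The first base of the match lay at -187 for AARS1, -4 for MARS1, -33 for GARS1, -2 for CARS1 and 15 for NARS1. These positions are counted from the annotated start that each window spans, not from the first base of the window. The GARS1 window belongs to a downstream start, as its stretch lies inside the annotated gene, which begins at base 30594735. The TARS1 match, not shown, also lies inside its gene, and TARS1 rose with both ZHX2 hairpins, by 0.47 on the log2 scale. The matches of IARS1, at -13, and of YARS2, at -197, are not shown either. IARS1 and YARS2 did not pass the test with both ZHX2 hairpins, with log2 differences of 0.23 and 0.26. A match is a description of these letters and shows no binding, and no occupancy data were used. Among measured cytosolic genes with a window, the median log2 difference between both ZHX2 hairpins and scrambled was 0.49 for the 7 with a match and 0.41 for the 9 without.

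The array medians ran from 6.15 to 6.22 (log2) for the 6 ZHX2 and scrambled arrays and from 1.87 to 1.89 for the 4 arrays of the p65 table. Each targeted gene followed the labels of its own table. ZHX2 stood at 8.93 and 9.03 on the hairpin 45 arrays, 9.35 and 9.38 on the hairpin 44 arrays, against 10.58 and 10.43 on the scrambled arrays, and the difference was -1.33 (SE 0.075, limma adjusted p = 0.00105). RELA in the p65 table stood at 5.04 and 5.28 with p65 shRNA, against 7.64 and 7.67 with control shRNA, a difference of -2.50 (SE 0.18), with no overlap but with an adjusted p of 0.0736 in a fit that called 0 genes. In the ZHX2 table RELA had 9.82 and 9.75 on the hairpin 45 arrays and 9.64 and 9.68 on the hairpin 44 arrays. The scrambled arrays had 9.34 and 9.23, and limma called RELA higher with both hairpins, as it did 11.9% of all genes. All 8 measured renal carcinoma markers lay above the array median on every array of both tables, as did CD68 among 4 leukocyte markers and COL1A1 and LUM among 4 fibroblast markers, but 0 of 4 endothelial markers. With both ZHX2 hairpins CD68 and LUM fell by 0.46 and 0.95 on the log2 scale, and so did the renal markers PAX8, PAX2, NNMT and CDH6, while KRT18 rose. Their part in the results that follow was not tested. In RNA from whole cultures, a change in the mix of cells and a change in RNA per cell cannot be told apart.

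The synthetase genes were higher with the ZHX2 hairpins than with the scrambled hairpin, with a larger median difference for the cytosolic class, although the difference between the classes was not tested. With both hairpins averaged, 14 of 19 cytosolic genes rose and 0 fell at a limma adjusted p under 0.05, with a median log2 difference of 0.43, a 1.35-fold higher signal. Of the 15 measured mitochondrial genes 4 rose and 0 fell, with a median of 0.25, or 1.19-fold. Over all 22462 genes 11.9% rose and 6.41% fell, and the median difference was -0.0042. At an unadjusted p under 0.05, 18 of 19 cytosolic and 10 of 15 mitochondrial genes were higher and 0 of either class were lower, where 19.0% of all genes were higher and 13.2% lower. All 4 hairpin arrays lay above both scrambled arrays for 18 cytosolic and 11 mitochondrial genes, a pattern that 21.8% of all genes showed. The difference was above 0 for all 19 cytosolic genes as deposited (18 of 19 after a further quantile normalization, where QARS1 turned) and for 14 of 15 mitochondrial genes, against 49.3% of all genes. With an intensity trend in the moderation, 18 cytosolic and 10 mitochondrial genes rose, where 17.3% of all genes did. The split over all genes depended on scaling, with 3059 genes higher and 1134 lower after median centring, 2111 higher and 1860 lower after quantile normalization, and 2663 higher and 1439 lower as deposited. The class medians moved too, to 0.48 and 0.30 after median centring. After quantile normalization they were 0.33 for cytosolic (1.254-fold) and 0.18 for mitochondrial genes (1.135-fold). There 15 cytosolic and 8 mitochondrial genes were higher at an unadjusted limma p under 0.05, as were 3651 of all genes.

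**Figure D1:**
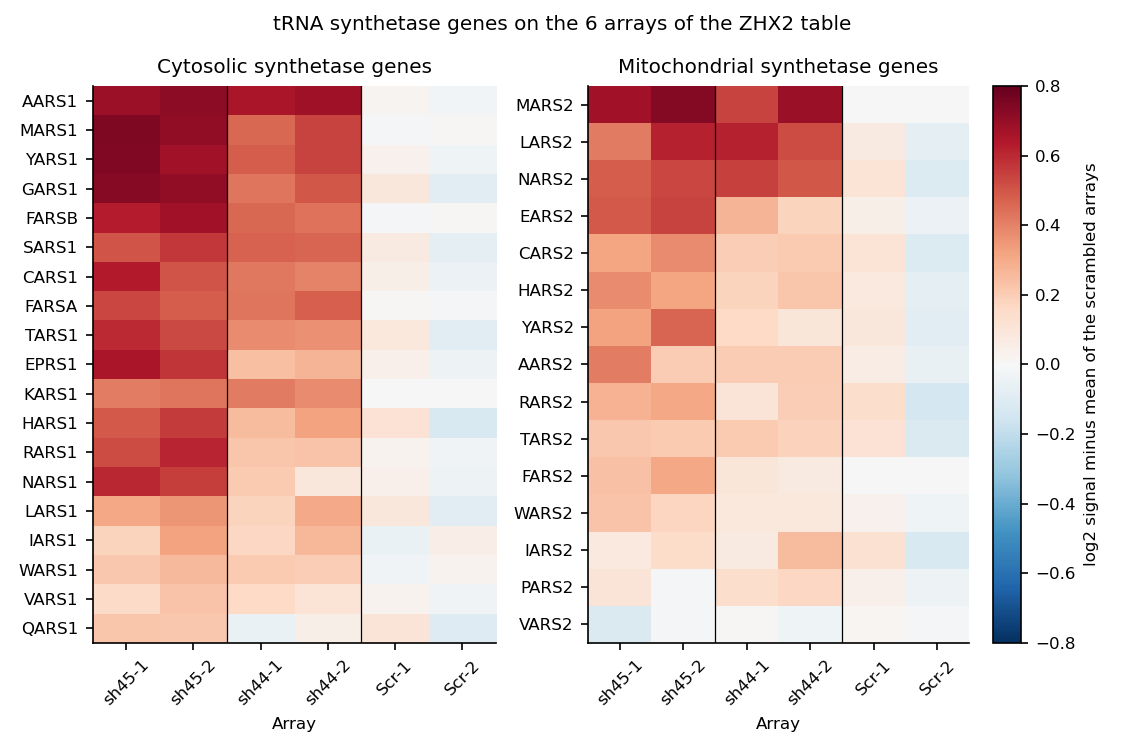
Heat map of the log2 signal of each synthetase gene (rows, ordered by the difference for both hairpins) on each of the 6 arrays of the ZHX2 table (columns), relative to the mean of the 2 scrambled arrays (Scr). The hairpin columns (sh45, sh44) are above 0 for nearly every cytosolic gene, with AARS1, MARS1 and YARS1 at the top and QARS1 at the bottom; the lower rows of the mitochondrial panel are paler.

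Of the class II enzymes, whose catalytic core is built on an antiparallel sheet, 9 of 9 cytosolic genes rose, with a median log2 difference of 0.48 and a range from 0.36 to 0.68. AARS1, which charges alanine tRNA and can remove wrongly attached serine, had log2 signals of 11.25 and 11.29 on the hairpin 45 arrays, 11.22 and 11.25 on the hairpin 44 arrays, against 10.60 and 10.55 on the scrambled arrays. All 4 hairpin arrays lay above both scrambled arrays, and the hairpins lay close together. The difference was 0.68 (SE 0.062, limma adjusted p = 0.00279), 1.61-fold and the highest of the 34 genes. GARS1, the glycine enzyme of both compartments, stood at 11.22 and 11.20 on the hairpin 45 arrays, 10.91 and 10.98 on the hairpin 44 arrays, against 10.58 and 10.40 on the scrambled arrays. The groups did not overlap, and both hairpin 45 arrays were above both hairpin 44 arrays. GARS1 was higher by 0.59 (SE 0.077, limma adjusted p = 0.00664).

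FARSA and FARSB encode the alpha and beta subunits of the cytosolic phenylalanine enzyme. FARSB measured 11.23 and 11.27 on the hairpin 45 arrays, 11.06 and 11.03 on the hairpin 44 arrays, against 10.59 and 10.61 on the scrambled arrays. FARSA measured 10.76 and 10.71 on the hairpin 45 arrays, 10.66 and 10.71 on the hairpin 44 arrays, against 10.24 and 10.22 on the scrambled arrays. Both subunits were above scrambled on every hairpin array, by 0.55 (SE 0.061, limma adjusted p = 0.00459) for FARSB and 0.48 (SE 0.063, limma adjusted p = 0.00652) for FARSA. SARS1, which charges serine tRNA and also places the serine from which selenocysteine is made, was at 10.19 and 10.25 on the hairpin 45 arrays, 10.15 and 10.15 on the hairpin 44 arrays, against 9.75 and 9.61 on the scrambled arrays. It was higher on all 4 hairpin arrays, by 0.50 (SE 0.072, limma adjusted p = 0.0087). KARS1, the lysine enzyme of both compartments, was at 10.90 and 10.92 on the hairpin 45 arrays, 10.91 and 10.87 on the hairpin 44 arrays, against 10.50 and 10.49 on the scrambled arrays. The 2 arrays of each group lay within a few hundredths of each other, the hairpins were nearly equal, and the difference was 0.41 (SE 0.061, limma adjusted p = 0.00957). The other class II genes that rose were TARS1 for threonine, HARS1 for histidine and NARS1 for asparagine, by 0.47, 0.41 and 0.36 on the log2 scale.

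Of the class I enzymes, built on a nucleotide-binding fold, 4 of 9 cytosolic genes rose, with a median log2 difference of 0.29 and a range from 0.11 to 0.61. MARS1, the methionine enzyme that serves both the initiator and the elongator tRNA, had 10.21 and 10.18 on the hairpin 45 arrays, 9.92 and 10.00 on the hairpin 44 arrays, against 9.46 and 9.48 on the scrambled arrays. YARS1, the tyrosine enzyme, had 9.73 and 9.66 on the hairpin 45 arrays, 9.47 and 9.53 on the hairpin 44 arrays, against 9.02 and 8.95 on the scrambled arrays. CARS1, the cysteine enzyme, had 9.11 and 8.98 on the hairpin 45 arrays, 8.89 and 8.87 on the hairpin 44 arrays, against 8.52 and 8.42 on the scrambled arrays. For all 3 genes every hairpin array was above both scrambled arrays, and both hairpin 45 arrays were above both hairpin 44 arrays. The differences were 0.61 (SE 0.064, limma adjusted p = 0.00386) for MARS1, 0.61 (SE 0.066, limma adjusted p = 0.00423) for YARS1 and 0.49 (SE 0.072, limma adjusted p = 0.00941) for CARS1. RARS1, the arginine enzyme, was the other class I gene that rose, by 0.39 (limma adjusted p = 0.0124).

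The remaining class I genes, LARS1, IARS1, WARS1, VARS1 and QARS1, were the 5 cytosolic genes that did not pass the test, with log2 differences between 0.11 and 0.29 and limma adjusted p between 0.0627 and 0.443. QARS1, the glutamine enzyme, was the cytosolic gene whose hairpin and scrambled arrays overlapped. WARS1, the tryptophan enzyme and an interferon-induced gene, had 8.47 and 8.51 on the hairpin 45 arrays, 8.46 and 8.45 on the hairpin 44 arrays, against 8.22 and 8.28 on the scrambled arrays on its brighter probe set. All hairpin arrays were above both scrambled arrays there, by 0.22 (SE 0.063, limma adjusted p = 0.063). Its dimmer probe set ran the other way, with 4.79 and 5.20 with hairpin 45 and 5.17 and 5.24 with hairpin 44, but 5.41 on each scrambled array, and the mean of both probe sets gave a log2 difference of -0.043. The dimmer probe set lay below the array median on every array of the ZHX2 table. VARS1, the valine enzyme, has 2 probe sets, and all 4 hairpin arrays were above both scrambled arrays on each of them.

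EPRS1 encodes a fused enzyme for glutamate and proline, with one domain of each class, and was counted in neither. It had 11.12 and 11.04 on the hairpin 45 arrays, 10.71 and 10.74 on the hairpin 44 arrays, against 10.51 and 10.43 on the scrambled arrays. All hairpin arrays were above scrambled, with hairpin 45 well above hairpin 44, and EPRS1 was higher by 0.43 (SE 0.067, limma adjusted p = 0.0107). Of the 7 measured enzymes of the multisynthetase complex (EPRS1, IARS1, KARS1, LARS1, MARS1, QARS1 and RARS1), 4 rose, with a median log2 difference of 0.39. Of the 12 measured cytosolic genes outside it 10 rose, with a median of 0.49. The grouping by class and by complex was made after the values had been seen and is given as a description.

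**Figure D2:**
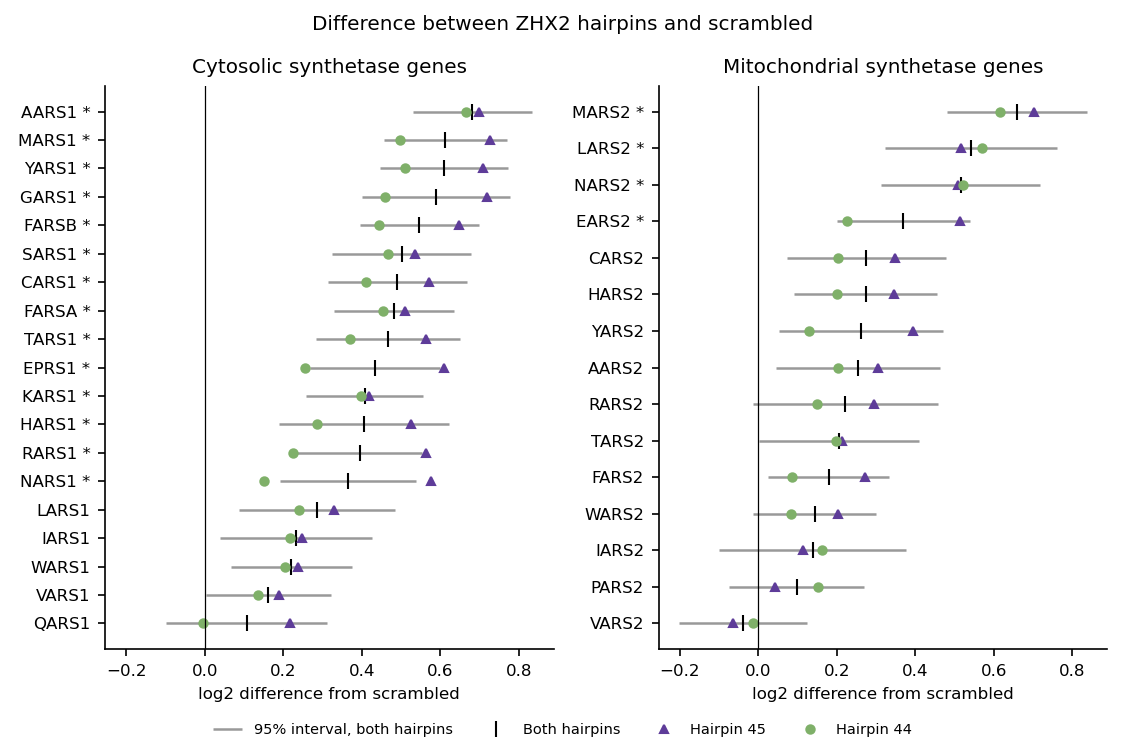
log2 difference from scrambled of each synthetase gene, for hairpin 45 (triangles), hairpin 44 (circles) and the mean of both hairpins (bar, with its 95% interval), ordered by the mean; an asterisk marks a limma adjusted p under 0.05 for both hairpins. In the cytosolic panel the triangles lie to the right of the circles for all 19 genes, and 14 genes carry an asterisk, against 4 in the mitochondrial panel.

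Among the mitochondrial enzymes, 4 of 15 genes rose. MARS2, the methionine enzyme whose product is formylated to start mitochondrial translation, had log2 signals of 8.34 and 8.40 on the hairpin 45 arrays, 8.21 and 8.36 on the hairpin 44 arrays, against 7.67 and 7.67 on the scrambled arrays. LARS2, the leucine enzyme, had 7.59 and 7.79 on the hairpin 45 arrays, 7.79 and 7.70 on the hairpin 44 arrays, against 7.25 and 7.10 on the scrambled arrays. NARS2, the asparagine enzyme, had 8.64 and 8.68 on the hairpin 45 arrays, 8.70 and 8.65 on the hairpin 44 arrays, against 8.26 and 8.04 on the scrambled arrays. For these 3 genes all hairpin arrays lay above both scrambled arrays, while the arrays of the hairpins overlapped each other. MARS2 was higher by 0.66 (SE 0.072, limma adjusted p = 0.00432). LARS2 was higher by 0.54 (SE 0.089, limma adjusted p = 0.0125) and NARS2 by 0.52 (SE 0.083, limma adjusted p = 0.0116).

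EARS2 charges glutamate tRNA and also loads glutamate onto the mitochondrial glutamine tRNA, which is then converted. It had 8.87 and 8.92 on the hairpin 45 arrays, 8.65 and 8.56 on the hairpin 44 arrays, against 8.42 and 8.33 on the scrambled arrays, so that hairpin 45 stood apart from hairpin 44, and both from scrambled. Its difference was 0.37 (SE 0.069, limma adjusted p = 0.0182). HARS2, the histidine enzyme, had 8.58 and 8.52 on the hairpin 45 arrays, 8.38 and 8.43 on the hairpin 44 arrays, against 8.28 and 8.13 on the scrambled arrays. CARS2, the cysteine enzyme, had 8.53 and 8.60 on the hairpin 45 arrays, 8.41 and 8.43 on the hairpin 44 arrays, against 8.32 and 8.11 on the scrambled arrays. Both had all hairpin arrays above scrambled, but their differences of 0.27 (SE 0.075, limma adjusted p = 0.0555) for HARS2 and 0.28 (SE 0.082, limma adjusted p = 0.0724) for CARS2 missed the threshold. The other 9 genes that did not pass had log2 differences between -0.04 and 0.26. The lowest, VARS2 for valine, was the one synthetase gene below 0 as deposited, and it was above 0 after median centring. Its gene lies in the MHC region and has 7 probe sets, of which 2 hold identical values, and their differences ran from -0.04 to 0.10, 4 above and 3 below 0.

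These differences and counts moved with the scrambled arrays, and so did the number of calls over all genes. Scrambled replicate 1 was above scrambled replicate 2 for 15 of 19 cytosolic and 15 of 15 mitochondrial genes, by medians of 0.07 and 0.14 on the log2 scale, against 0.03 over all genes. Without scrambled replicate 2 the median differences with both hairpins were 0.39 for cytosolic and 0.17 for mitochondrial genes. Without scrambled replicate 1 they were 0.49 and 0.35. Fewer genes passed over all genes without scrambled replicate 2. CARS1, EPRS1, HARS1, NARS1, RARS1, TARS1, LARS2 and EARS2 lost their calls there, with log2 differences between 0.29 and 0.47. EARS2 lost its call also without hairpin 44 replicate 1 or either hairpin 45 replicate.

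Cytosolic and mitochondrial enzymes for the same amino acid were matched by name in 14 pairs, 12 of them of 1 amino acid each and 2 that pair EPRS1 with EARS2 and with PARS2, so the pairs share genes. The phenylalanine genes FARSA and FARSB, which rose, and FARS2, which did not pass with both hairpins, were not paired. The log2 difference of the cytosolic gene was the larger in 11 pairs and that of the mitochondrial gene in 3, with a median gap of 0.15. The widest gap was that of AARS1 and AARS2, at 0.68 and 0.25, followed by YARS1 and YARS2, at 0.61 and 0.26. The 3 pairs that ran the other way were those for methionine, asparagine and leucine, with 0.61 for MARS1 and 0.66 for MARS2, 0.36 for NARS1 and 0.52 for NARS2, and 0.29 for LARS1 and 0.54 for LARS2. No test of the gap was made, because the genes of a pair are measured by different probes.

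**Figure D3:**
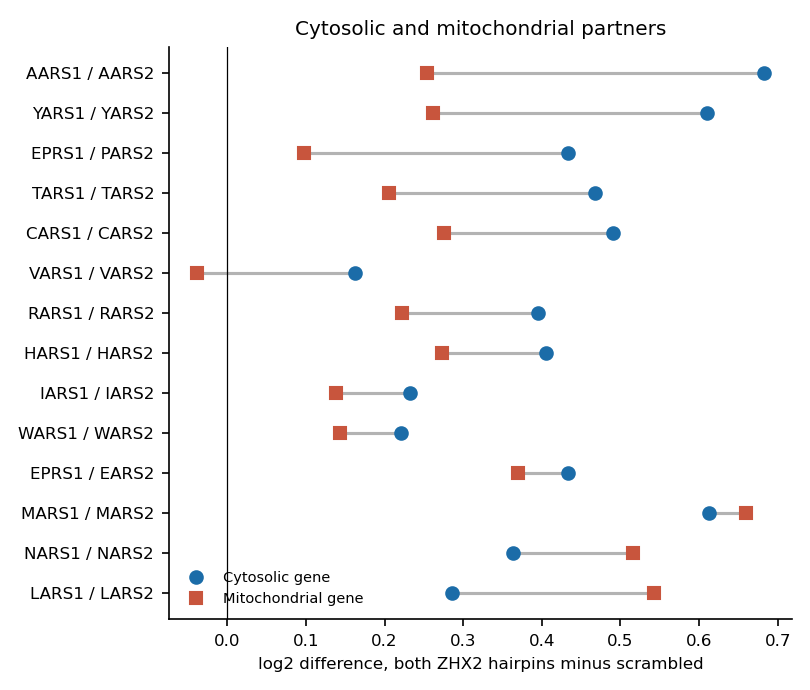
log2 difference between both ZHX2 hairpins and scrambled for the cytosolic gene (circle) and the mitochondrial gene (square) of 14 pairs, ordered by the gap from the top. The circle is to the right of the square in 11 pairs, and to the left for methionine, asparagine and leucine.

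Each hairpin was also set against the same 2 scrambled arrays, so these comparisons share their controls. With hairpin 45, 14 of 19 cytosolic and 7 of 15 mitochondrial genes rose, with median log2 differences of 0.56 and 0.31, where 13.0% of all genes rose and 7.11% fell. With hairpin 44, 9 cytosolic and 3 mitochondrial genes rose, with medians of 0.37 and 0.20 (0.29 and 0.10 without scrambled replicate 2), where 4.79% of all genes rose and 2.84% fell. No synthetase gene fell with either. Both arrays of hairpin 45 were above both scrambled arrays for 19 cytosolic and 12 mitochondrial genes, as for 30.9% of all genes, and both arrays of hairpin 44 for 18 and 12, as for 28.5% of all genes. MARS2, LARS2 and NARS2 rose with each hairpin, and EARS2, HARS2, FARS2 and YARS2 passed the test with hairpin 45 and not with hairpin 44. The hairpin 44 counts depended on the fit, as did the calls over all genes. In a fit of only the hairpin 44 and scrambled arrays 1 gene of each class rose, with unchanged medians. Over all 22462 genes that fit called 575, against 1715 in the main fit. Without any 1 of the 6 arrays most of the hairpin 44 calls were lost, in both classes and over all genes. The medians then ran from 0.29 to 0.40 for cytosolic and from 0.10 to 0.28 for mitochondrial genes. With an intensity trend 15 cytosolic genes rose with hairpin 44, where 11.7% of all genes rose. Without hairpin 45 replicate 1 or replicate 2, calls with hairpin 45 were lost in both classes and over all genes. The cytosolic medians were then 0.55 and 0.54, and the mitochondrial ones 0.31 in each. Without scrambled replicate 2 the mitochondrial median with hairpin 45 was 0.25.

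Set directly against each other, hairpin 45 was above hairpin 44 for all 19 cytosolic genes with a median log2 difference of 0.19 (16 genes and 0.12 after quantile normalization), and for 10 of 15 mitochondrial genes, with a median of 0.10. Over all genes 50.6% were above 0 and the median was 0.0024. Both hairpin 45 arrays lay above both hairpin 44 arrays for 16 cytosolic and 8 mitochondrial genes, a pattern of 26.9% of all genes. In limma, 0 of the 34 genes passed the test, against 0.129% of all genes called higher and 0.267% called lower, and 10 of 34 were higher and 0 lower at an unadjusted p under 0.05, of which 7 were cytosolic, where 8.35% of all genes were higher and 6.75% lower. The ZHX2 signal itself was lower with hairpin 45, at 8.93 and 9.03, than with hairpin 44, at 9.35 and 9.38. That ZHX2 difference was not called in the main fit. With an intensity trend it was, at -0.39 (limma adjusted p = 0.00513), where 548 of 22462 genes were called lower. Its part in the synthetase differences was not tested.

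The 3 genes with the smallest p were NARS1, EPRS1 and RARS1. NARS1, whose promoter stretch is shown above, had 11.02 and 10.97 on the hairpin 45 arrays, 10.62 and 10.51 on the hairpin 44 arrays, against 10.45 and 10.38 on the scrambled arrays. RARS1 had 11.16 and 11.24 on the hairpin 45 arrays, 10.86 and 10.86 on the hairpin 44 arrays, against 10.66 and 10.61 on the scrambled arrays, and the values of EPRS1 are given above. For all 3, both hairpin 45 arrays were above both hairpin 44 arrays, and those were above both scrambled arrays. The differences of hairpin 45 from hairpin 44 were 0.43 (SE 0.081, limma adjusted p = 0.119) for NARS1, 0.35 (SE 0.078, limma adjusted p = 0.151) for EPRS1 and 0.34 (SE 0.075, limma adjusted p = 0.151) for RARS1. With an intensity trend, EPRS1, FARSB, GARS1, MARS1, NARS1, RARS1 and EARS2 were called higher with hairpin 45, where 4.1% of all genes were.

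In the p65 table the synthetase genes went both ways and none passed the test. With p65 shRNA 12 of 19 cytosolic genes were above and 7 below control shRNA, with a median log2 difference of 0.06 and a range from -0.49 to 0.33. Of the mitochondrial genes 6 were above and 9 below, against 50.8% of all genes above 0, with a median of -0.07 and a range from -0.33 to 0.62. Limma called 0 of 34 genes and 0.0% of all 22462, and at an unadjusted p under 0.05, 2 synthetase genes were higher and 1 lower, where 6.39% of all genes were higher and 7.94% lower. The arrays did not overlap for 8 cytosolic genes in the higher and 6 in the lower direction, and for 2 and 3 mitochondrial genes, where 23.4% and 22.7% of all genes showed these patterns. With 2 arrays a group and 2 residual degrees of freedom the intervals were wide.

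KARS1, one of the genes higher with the ZHX2 hairpins, had log2 signals of 8.61 and 8.79 with p65 shRNA, against 9.18 and 9.19 with control shRNA. Both p65 arrays were below both control arrays, and the difference was -0.49 (95% interval -0.92 to -0.05, limma adjusted p = 0.304). With an intensity trend its adjusted p was 0.0479, the one synthetase call in that fit, which called 1.36% of all genes higher and 2.48% lower. HARS1 had 3.64 and 3.81 with p65 shRNA, against 4.31 and 3.95 with control shRNA. VARS1 had 6.62 and 6.65 with p65 shRNA, against 6.90 and 6.97 with control shRNA. FARSB had 8.62 and 8.42 with p65 shRNA, against 8.73 and 8.89 with control shRNA. In these 3 genes both p65 arrays were also below both control arrays, with differences of -0.41, -0.31 and -0.29 and intervals that include 0.

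CARS1 had 5.85 and 5.94 with p65 shRNA, against 5.60 and 5.52 with control shRNA. FARSA, the partner subunit of FARSB, had 8.18 and 8.23 with p65 shRNA, against 7.84 and 8.04 with control shRNA. Both p65 arrays were above both control arrays for each, by 0.33 for CARS1 (95% interval -0.09 to 0.75) and 0.27 for FARSA (95% interval -0.17 to 0.71). The subunits of the phenylalanine enzyme thus stood on opposite sides of 0 in this table, neither passing the test, whereas both rose with the ZHX2 hairpins. GARS1 had 9.42 and 9.23 with p65 shRNA, against 9.12 and 9.18 with control shRNA, and WARS1 had 5.38 and 5.24 with p65 shRNA, against 5.06 and 5.10 with control shRNA. Both were above control on both p65 arrays, by 0.18 and 0.23, with limma adjusted p of 0.704 and 0.606. The GARS1 difference was 0.082 without p65 shRNA replicate 1, and that of WARS1 was 0.065 with the mean of its 2 probe sets, as the dimmer one ran the other way here too, at -0.097.

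MARS2 had 5.72 and 5.76 with p65 shRNA, against 5.25 and 4.99 with control shRNA. RARS2, the mitochondrial arginine enzyme, had 8.11 and 8.27 with p65 shRNA, against 7.72 and 7.69 with control shRNA. Both p65 arrays were above both control arrays for these 2 genes, by 0.62 for MARS2 (95% interval 0.16 to 1.08, limma adjusted p = 0.241) and 0.49 for RARS2 (95% interval 0.06 to 0.91, limma adjusted p = 0.302). AARS2, the mitochondrial alanine enzyme, had 4.53 and 4.68 with p65 shRNA, against 3.89 and 4.55 with control shRNA, and its groups overlapped. AARS1 had 9.37 and 9.26 with p65 shRNA, against 8.93 and 9.60 with control shRNA, with the same gap of 0.66 between its control arrays as AARS2, the widest such gap in either class.

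**Figure D4:**
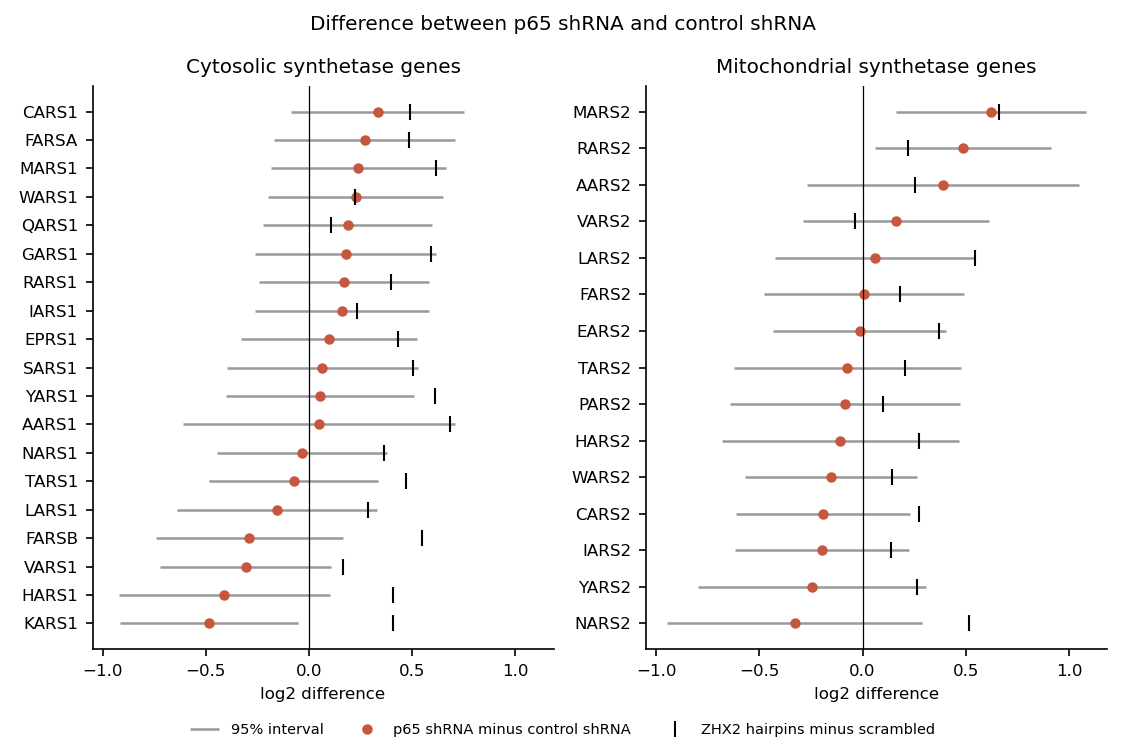
log2 difference between p65 shRNA and control shRNA of each synthetase gene (points, with 95% intervals), ordered within each panel, with the difference between both ZHX2 hairpins and scrambled as a black bar. The p65 points lie on both sides of 0, and the intervals of KARS1, MARS2 and RARS2 are the ones that leave out 0.

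The 2 tables share no arrays, and the direction of each gene can be set side by side. Of the cytosolic genes 12 were higher in both and 7 were higher with the ZHX2 hairpins and lower with p65 shRNA. Of the mitochondrial genes 5 were higher in both, 9 were higher with the ZHX2 hairpins and lower with p65 shRNA, and VARS2, whose brightest probe set was not the same one in the 2 tables and whose sign depended on the probe set in each, was lower with the ZHX2 hairpins and higher with p65 shRNA. MARS2 was the mitochondrial gene with the largest difference in each table, 0.66 with the ZHX2 hairpins and 0.62 with p65 shRNA. KARS1 was at 0.41 with the ZHX2 hairpins and -0.49 with p65 shRNA, and its p65 interval lay wholly below 0. No difference between the tables was tested.

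The surrounding pathway was followed through 43 measured genes of 49 listed. With both ZHX2 hairpins 26 of the 43 rose and 1 fell, with a median log2 difference of 0.31, where 11.9% of all genes rose and 6.41% fell. AIMP1, the measured scaffold of the multisynthetase complex, rose by 0.40 (SE 0.076, limma adjusted p = 0.0191). Of 8 genes of tRNA maturation and export 6 rose, with a median of 0.41, led by XPOT, which carries tRNA out of the nucleus, at 0.74 (SE 0.076, limma adjusted p = 0.00358), and RTCB, which ligates spliced tRNA, at 0.49 (SE 0.065, limma adjusted p = 0.00696). Of 4 genes that complete mitochondrial glutamine and methionine tRNA 3 rose, among them MTFMT, the formylase that acts on the product of MARS2, by 0.51 (SE 0.12, limma adjusted p = 0.0394), and GATB, by 0.28 (SE 0.07, limma adjusted p = 0.042). Neither of the 2 genes of selenocysteine tRNA charging passed, nor did DTD1, which clears tRNA of D-amino acids, or EEF1A2, which delivers charged tRNA to the ribosome. With an intensity trend EEF1A2 was called higher, by 0.19 (limma adjusted p = 0.0132), where 17.3% of all genes rose.

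Of the 3 genes that sense uncharged tRNA EIF2AK4 rose, by 0.39 (SE 0.062, limma adjusted p = 0.0111). The ATF4 transcript had 10.52 and 10.62 on the hairpin 45 arrays, 10.45 and 10.60 on the hairpin 44 arrays, against 10.29 and 10.45 on the scrambled arrays, so the groups overlapped, and its difference was 0.18 (SE 0.086, limma adjusted p = 0.223). With an intensity trend all 3 genes of this list were called higher, ATF4 with an adjusted p of 0.0496 and GCN1, which activates GCN2, with 0.00504. Of 15 genes of amino acid synthesis and transport known as ATF4 targets 12 rose and 0 fell, where 11.9% of all genes rose and 6.41% fell, with a median log2 difference of 0.54. SLC7A11, the cystine transporter, had 11.08 and 11.02 on the hairpin 45 arrays, 10.81 and 10.79 on the hairpin 44 arrays, against 9.79 and 9.73 on the scrambled arrays, higher on every hairpin array, by 1.17 (SE 0.064, limma adjusted p = 0.000973). PSAT1, of serine synthesis, had 11.44 and 11.52 on the hairpin 45 arrays, 11.09 and 11.07 on the hairpin 44 arrays, against 10.39 and 10.30 on the scrambled arrays, also higher on every hairpin array, by 0.93 (SE 0.068, limma adjusted p = 0.00186).

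The 8 stress factors known as ATF4 targets did not move together, with 3 higher, 1 lower and a median of -0.05, where 11.9% of all genes rose and 6.41% fell. With an intensity trend 3 were higher and 3 lower. STC2, a secreted glycoprotein, rose by 1.67 (SE 0.072, limma adjusted p = 0.000704) and CHAC1, which degrades glutathione, by 1.02 (SE 0.071, limma adjusted p = 0.00178). SESN2, named after its value was seen as the one gene that fell, changed by -0.43 (SE 0.081, limma adjusted p = 0.0186), and TRIB3 stood at 0.01 (limma adjusted p = 0.955). With p65 shRNA limma called 0 of the 43 pathway genes, 4 were higher and 1 lower at an unadjusted p under 0.05, and the median was 0.0065. At that unadjusted threshold 6.39% of all genes were higher and 7.94% lower. The 8 stress factors had a median of 0.58 with p65 shRNA, with 0 called and 2 higher at an unadjusted p under 0.05, STC2 and SESN2. STC2 was the pathway gene with the smallest p there, at 1.45 (SE 0.23, limma adjusted p = 0.101), with 8.84 and 8.33 with p65 shRNA, against 7.05 and 7.22 with control shRNA. With an intensity trend, limma called STC2 (adjusted p = 0.00549), CTH (1.06, adjusted p = 0.0128) and GATC (0.60, adjusted p = 0.036) higher with p65 shRNA. Of all genes 1.36% were called higher and 2.48% lower in that fit.

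**Figure D5:**
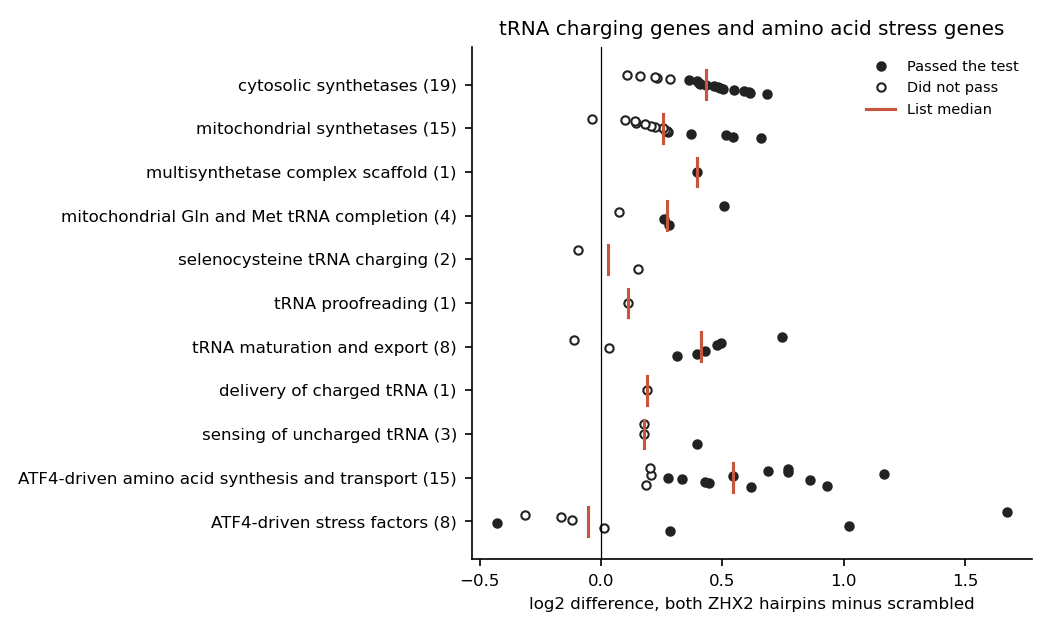
log2 difference between both ZHX2 hairpins and scrambled for every measured gene of the synthetase classes and the pathway lists (number of genes in brackets), with filled points for a limma adjusted p under 0.05 and a vertical mark at each list's median. The amino acid synthesis and transport list has the highest median among lists of over 1 gene, at 0.54, and the stress factors spread on both sides of 0.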

How the data were processed

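RNA from 10 samples was hybridised to Affymetrix arrays, and the sample titles give each array's group and replicate number. The deposited values are log2 signals made with RMA, which corrects background, normalizes and summarises probes per probe set, per the submitters' processing notes. The RMA software and its version are not given in the sources consulted. Of 53617 probe sets, 24525 were named with 1 gene from the platform annotations, with symbols updated through RefSeq (GRCh38.p14). For a gene with several probe sets the one with the highest mean in the table was used.

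Group means were fitted over 22462 genes in R 4.3.3 with limma 3.58.1 (no intensity trend), with 3 residual degrees of freedom for the 6 ZHX2 arrays and 2 for the 4 p65 arrays. Genes were called where the p adjusted by Benjamini-Hochberg over all genes was under 0.05, and the fit was tested on simulated data. Differences are on the log2 scale with moderated standard errors. The number of arrays limits the precision, and no probe set was called absent.

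Values on every array are given for the 10 cytosolic and 6 mitochondrial genes with the smallest p for both ZHX2 hairpins, the 3 with the smallest p between hairpins, and the 6 and 3 with the smallest p for p65, with WARS1, KARS1 and GARS1 added. At most 2 genes of each pathway list are named by smallest p, and ATF4, TRIB3 and SESN2 were added after their values were seen. The members and lists were chosen with earlier results of these data known. The fits were repeated with robust moderation, an intensity trend, quantile normalization, median centring, dim probe sets (below the 40th percentile of mean signal) left out, the mean of probe sets, a replicate block, only the groups compared, and leaving out each array.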

Additional observations from a re-analysis of the deposited data

How the results depend on the processing

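With both ZHX2 hairpins, between 13 and 18 cytosolic synthetase genes rose and 0 fell under every alternative that kept all arrays. With 1 array left out the cytosolic median ran from 0.39 to 0.49, and calls were lost in most such fits, as over all genes. The mitochondrial count was 4, against 10 with an intensity trend and 8 without dim probe sets. Over all genes 4102 were called, 5882 with an intensity trend and 5261 of 16450 without dim probe sets. The mitochondrial median ran from 0.17 to 0.35 with 1 array left out. For hairpin 44 the cytosolic count of 9 became 15 with an intensity trend and 1 with only the groups compared. The mitochondrial count of 3 became 1 with only the groups compared. Over all genes 1715 were called with hairpin 44, 3943 with an intensity trend and 575 with only the groups compared. With 1 array left out most hairpin 44 calls were lost, as over all genes, and the medians ran from 0.29 to 0.40 (cytosolic) and from 0.10 to 0.28 (mitochondrial). For hairpin 45 the cytosolic median ran from 0.50 to 0.62 with 1 array left out, and calls were lost without either hairpin 45 array, as over all genes. The mitochondrial count of 7 with hairpin 45 became 4 after quantile normalization or with only the groups compared. Over all genes 4514 were called with hairpin 45, and 4168 and 3216 in those 2 fits. The mitochondrial median with hairpin 45 ran from 0.25 to 0.43 with 1 array left out. Between the hairpins the counts of 0 became 6 cytosolic genes and 1 mitochondrial gene with an intensity trend, and 1 cytosolic gene (NARS1) without dim probe sets. Over all genes 89 were called between the hairpins, 1469 with an intensity trend and 400 of 16450 without dim probe sets. For p65 the cytosolic count of 0 became 1 (KARS1) with an intensity trend, where 1.36% of all genes were called higher and 2.48% lower. With both ZHX2 hairpins WARS1 reversed to -0.043 with the mean of its 2 probe sets, which differ in direction, the dimmer one lying below the array medians. Apart from these probe sets, the cause was not tested. Of the single genes followed, 384 results kept direction and side of the threshold, 16 passed it, 7 lost it and 1 reversed.

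The replicate numbers do not pair the arrays by any label, and deviations of same-numbered arrays from their group means correlated at -0.0263, 0.0539 and 0.0271 in the ZHX2 table and 0.0099 in the p65 table. With the replicate number as a block, 13 cytosolic and 4 mitochondrial genes rose with both hairpins, 3 and 1 with hairpin 44, and 14 and 4 with hairpin 45, and 0 genes of either class were called between the hairpins or for p65. Over all genes 3385, 819 and 3779 were called with both hairpins, hairpin 44 and hairpin 45, against 4102, 1715 and 4514 without the block. Where 1 array of a group was left out, the lone array was assumed to vary like the other groups.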
